A study of Mus musculus with 3 samples.

Results

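The imprinted growth genes H19, Igf2, Dlk1, Meg3, Peg3, Plagl1, Cdkn1c, Grb10, Mest and Ndn were read from a gene expression table of mouse mandibular condyles. The 10 genes were chosen by name as imprinted genes with a known part in growth, not by their values, and all 10 were found among the 26970 genes of the table. The study asked what loss of Dspp, the gene of dentin sialophosphoprotein, does to the condyle, the cartilage-capped bone of the jaw joint. RNA sequencing compared 3 genotypes of 4-month-old mice, wild type (WT), Dspp+/- and Dspp-/-, with 1 column of values each, called a library here although the labels speak of triplicates. Dspp-/- mice were global knockouts on a C57BL/6 background, and Dspp+/- mice came from crossing them with C57BL/6 WT mice. Which parent carried the mutant allele in that cross is not given in the sources used here. The WT and Dspp+/- tissue was pooled from 3 animals, and the number behind the Dspp-/- library is not stated. Cartilage and subchondral bone were not separated. The level of Dspp was not analysed here, which leaves the genotype labels unchecked.

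Imprinted genes are expressed mainly from 1 parental copy, which is set by DNA methylation laid down in the egg or the sperm. Many of them act on growth before birth, with genes expressed from the paternal copy (Igf2, Dlk1, Peg3, Plagl1, Mest and Ndn in this set) often favouring it and genes expressed from the maternal copy (H19, Meg3, Cdkn1c and, in most tissues, Grb10) often restraining it. Many are highly expressed in the fetus and turned down in most tissues after birth. The libraries hold no allele-specific values, so the levels below are sums over both copies.

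The 300 bases around RefSeq start sites (250 before and 50 after, GRCm38.p6) are shown for the 3 genes that were lower in the Dspp+/- library by the widest margin, Plagl1, Peg3 and Grb10, and for Mest, whose 3 libraries could not be told apart. Capitals mark TGCCGC or its reverse complement GCGGCA, the hexamer that the imprint-keeping zinc finger protein ZFP57 recognises when it is methylated. The stretches are Plagl1 at chr10:13090582-13090881 (+), Peg3 at chr7:6730370-6730669 (-), the upstream and the downstream Grb10 start sites at chr11:12037371-12037670 (-) and chr11:12027922-12028221 (-), and a Mest start site at chr6:30737800-30738099 (+).
Plagl1: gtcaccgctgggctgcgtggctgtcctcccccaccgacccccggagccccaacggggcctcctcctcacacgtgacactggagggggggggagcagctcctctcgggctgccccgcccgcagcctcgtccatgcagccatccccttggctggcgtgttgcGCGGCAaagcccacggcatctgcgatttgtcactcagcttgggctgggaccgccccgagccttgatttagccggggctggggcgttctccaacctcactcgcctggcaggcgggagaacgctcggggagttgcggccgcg
Peg3: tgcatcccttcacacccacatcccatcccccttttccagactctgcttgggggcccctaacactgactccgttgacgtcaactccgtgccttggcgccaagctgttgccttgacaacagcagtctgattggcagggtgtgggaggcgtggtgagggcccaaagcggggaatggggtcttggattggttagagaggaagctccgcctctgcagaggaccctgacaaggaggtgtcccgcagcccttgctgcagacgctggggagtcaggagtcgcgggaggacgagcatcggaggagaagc
Grb10, upstream start: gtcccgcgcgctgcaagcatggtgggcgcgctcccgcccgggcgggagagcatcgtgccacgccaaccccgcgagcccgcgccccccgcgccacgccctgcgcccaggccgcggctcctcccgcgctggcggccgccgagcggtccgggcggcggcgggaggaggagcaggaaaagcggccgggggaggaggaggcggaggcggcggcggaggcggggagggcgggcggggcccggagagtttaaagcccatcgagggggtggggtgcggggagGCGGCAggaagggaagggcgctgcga
Grb10, downstream start: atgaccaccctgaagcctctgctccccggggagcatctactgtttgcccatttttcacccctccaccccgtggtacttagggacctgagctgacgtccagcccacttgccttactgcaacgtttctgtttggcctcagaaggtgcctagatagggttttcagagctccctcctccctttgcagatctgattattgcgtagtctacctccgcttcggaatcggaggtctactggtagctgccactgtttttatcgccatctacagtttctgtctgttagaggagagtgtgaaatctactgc
Mest: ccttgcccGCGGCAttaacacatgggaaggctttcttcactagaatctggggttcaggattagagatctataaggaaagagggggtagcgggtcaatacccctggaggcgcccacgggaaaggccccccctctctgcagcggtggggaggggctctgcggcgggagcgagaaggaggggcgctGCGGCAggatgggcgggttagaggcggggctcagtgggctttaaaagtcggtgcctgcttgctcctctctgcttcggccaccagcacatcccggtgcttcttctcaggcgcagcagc
The hexamer stood once in the Plagl1 stretch, once at the upstream Grb10 start and at 2 places in the Mest stretch, and these letters were not in the Peg3 stretch or at the downstream Grb10 start. Of 32851 RefSeq mouse promoter windows of the same length, 11.6% held it on either strand. CpG dinucleotides numbered 26 in the Plagl1 stretch, 13 in Peg3, 45 and 9 in Grb10 and 17 in Mest, beside a median of 7 over all windows. An upstream Mest start site, at chr6:30733256-30733555 (+) and not printed, held 8 CpG dinucleotides and 0 matches. A match is a description of the letters, and methylation was not measured.

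The transcripts of 4 of the genes also hold microRNAs. H19 carries miR-675 in an exon and Mest carries miR-335 in an intron. Their mature RefSeq sequences are given because they show which small RNAs these transcripts can yield, with the seed (bases 2 to 8) in capitals.
mmu-miR-675-5p: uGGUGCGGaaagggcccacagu
mmu-miR-675-3p: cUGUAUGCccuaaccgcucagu
mmu-miR-335-5p: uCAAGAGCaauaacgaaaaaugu
mmu-miR-335-3p: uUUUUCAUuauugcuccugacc
These 4 seeds differ from each other. Igf2 carries miR-483 in an intron and Meg3 carries miR-770 in an exon. The libraries were made from fragmented poly(A) RNA and do not measure mature microRNAs, so the levels below are those of the host transcripts.

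Values are FPKM, fragments scaled to exon length and library depth, and can be compared between genes since they are per length. The fragments behind a value were recovered from it and from the exon length of the gene, at depths of 20241576 fragments in the WT library, 23613621 in the Dspp+/- library and 22253158 in the Dspp-/- one. A single fragment in 1 kb of exon was worth 0.0494, 0.0423 and 0.0449 FPKM in that order. Intervals are exact, at 95%, and cover counting error only. With 1 library per genotype no test is possible, and a difference beyond counting error is one between these libraries, in which genotype, animals and dissection cannot be told apart. Both mutant libraries were compared with the same WT library. A gene was compared where its 3 libraries averaged 1 FPKM or more, 13026 genes in all and 7 of the 10 imprinted growth genes. Ratios over many genes are given as log2 of (FPKM + 1), a scale that understates the change of low genes.

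The condyle libraries held bone and cartilage markers, but also muscle and marrow markers, and their levels differed between the libraries. The summed FPKM of 7 osteoblast markers was 13094 in WT against 3669 in Dspp+/- and 7300 in Dspp-/-. For 7 chondrocyte markers the sums were 1125, 138 and 473. The osteocyte list summed to 884, 364 and 350, the tendon and fibroblast list to 1640, 892 and 1351 and the osteoclast list to 2199, 775 and 1270. Skeletal muscle markers summed to 7912, 11102 and 9275 and endothelial markers to 91.1, 110 and 103. Of the blood lists, erythroid markers summed to 829, 3468 and 3311, neutrophil markers to 373, 1741 and 2411, B cell markers to 308, 871 and 740 and megakaryocyte markers to 12.6, 88.4 and 98.2. No marker on the 12 lists was at 0 in any library. Xist, the RNA of the inactive X chromosome in female cells, was named after its values were seen and had 2 fragments in the WT library, 12084 in the Dspp+/- library and 10563 in the Dspp-/- one. Sex, cell mixture and genotype cannot be told apart here, nor can fewer cells of a type and less RNA per cell.

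**Figure D1:**
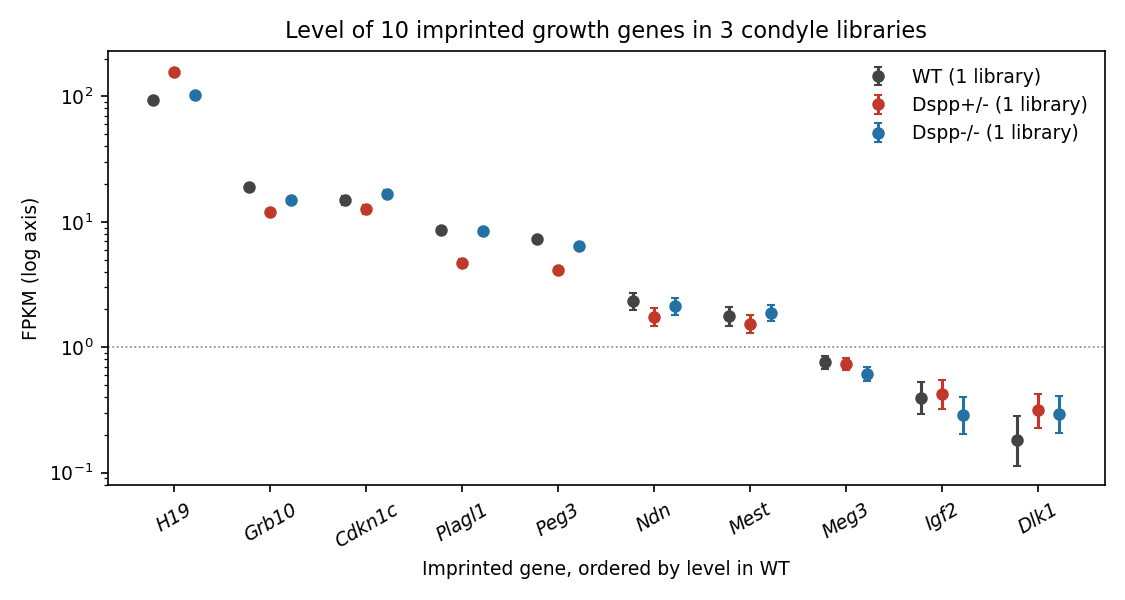
FPKM of the 10 imprinted growth genes (log axis) in the 3 condyle libraries. Each point is 1 library and each bar is the exact 95% interval from its fragments, which covers counting error only. H19 stood above the other genes in every library, and Dlk1, Igf2 and Meg3 stayed below 1 FPKM throughout.

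The 10 genes spanned a wide range of levels in the adult condyle, from H19 at 93.2 FPKM to Dlk1 at 0.183 FPKM in WT. The order in WT was H19, Grb10, Cdkn1c, Plagl1, Peg3, Ndn, Mest, Meg3, Igf2 and Dlk1. Ndn and Mest were neighbours in that order whose intervals overlapped in every library. Cdkn1c and Grb10 overlapped in both mutant libraries, as did Igf2 and Dlk1. The other neighbours were apart by more than counting error. The 10 genes summed to 148 FPKM in WT against 196 in Dspp+/- and 155 in Dspp-/-, of which H19 alone gave 62.8%, 80.5% and 66.7%. Without H19 the sums were 55.2, 38.2 and 51.6 FPKM, so the Dspp+/- library had the highest sum with H19 and the lowest without it.

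H19 is a long noncoding RNA expressed from the maternal copy, abundant in fetal tissue and kept on in adult skeletal muscle. It lies at chr7:142575529-142578143 on the minus strand (GRCm38) and is annotated as a lincRNA. H19 had 93.2 FPKM in the WT library, 157 FPKM in the Dspp+/- library and 103 FPKM in the Dspp-/- one, from 4641, 9143 and 5643 fragments. The Dspp+/- library stood apart as the high one, while WT and Dspp-/- were close. Relative to WT, H19 stood at 1.69 (1.63 to 1.75) in the Dspp+/- library and at 1.11 (1.06 to 1.15) in the Dspp-/- library, and Dspp-/- was 0.655 (0.633 to 0.677) of Dspp+/-. H19 thus ranked 322nd by FPKM among all genes in WT against 179th in Dspp+/- and 268th in Dspp-/-. Of the 4 skeletal muscle markers, 3 were highest in the same library. Acta1, the actin of skeletal muscle fibres, had 5609, 8162 and 7150 FPKM in WT, Dspp+/- and Dspp-/-, and Ckm, muscle creatine kinase, had 728, 972 and 796. Tnnt3, a fast-fibre troponin, had 1450, 1950 and 1218 FPKM. The fourth muscle marker, the fast myosin Myh4, named after its values were seen, went the other way with 124, 18.2 and 111 FPKM. The part of muscle in the H19 difference was not tested.

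Igf2, insulin-like growth factor 2, is the fetal growth factor that shares an enhancer region with H19 and lies beside it at chr7:142650766-142666816 on the minus strand. Its level in the adult condyle was low, with 0.397 FPKM in the WT library, 0.422 in the Dspp+/- library and 0.291 in the Dspp-/- one, from 46, 57 and 37 fragments. The libraries overlapped within counting error. Relative to WT, Igf2 stood at 1.06 (0.708 to 1.60) in the Dspp+/- library and at 0.732 (0.461 to 1.15) in the Dspp-/- library, so a difference was not detectable at this depth. Of the exon length of Igf2, 62.8% is shared on the same strand with the annotated gene Gm49394, which was not analysed here. How fragments in shared exons were assigned is not given in the sources used here. Of 186 protein-coding genes with at least 95% of their exons inside those of another gene on the same strand, 16.1% had a value. Of the other protein-coding genes, 78.5% had one. Igf2 is outside the first group, so these shares cannot show how its fragments were assigned. Its level therefore remains uncertain. H19 stood 235-fold above Igf2 in WT against 373-fold in Dspp+/- and 355-fold in Dspp-/- by FPKM.

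Dlk1 and Meg3 are the paternally and the maternally expressed genes of an imprinted cluster on chromosome 12. Dlk1, at chr12:109452823-109463336 on the plus strand, encodes a membrane protein related to Notch ligands that holds back fat cell differentiation. It had 0.183 FPKM in the WT library, 0.314 in the Dspp+/- library and 0.294 in the Dspp-/- one, from 21, 42 and 37 fragments. Both mutant values were above WT, but the ratios of 1.71 (0.993 to 3.05) and 1.60 (0.914 to 2.88) each included 1. Adipocyte markers summed to 30.9, 15.8 and 80.1 FPKM in the same order. Meg3, a long noncoding RNA at chr12:109541001-109571726 on the plus strand, had 0.762 FPKM in WT against 0.735 in Dspp+/- and 0.609 in Dspp-/-, from 279, 314 and 245 fragments. WT and Dspp+/- could not be told apart (ratio 0.965, 0.818 to 1.14). Dspp-/- was lower than both, at 0.799 (0.670 to 0.952) of WT and 0.828 (0.698 to 0.982) of Dspp+/-, beyond counting error but at under 1 FPKM.

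Plagl1 and Peg3 encode paternally expressed zinc finger proteins. Plagl1, at chr10:13060504-13131694 on the plus strand, encodes a transcription factor that acts on a network of other imprinted genes, Igf2 and H19 among them. Plagl1 had 8.59 FPKM in the WT library, 4.69 in the Dspp+/- library and 8.52 in the Dspp-/- one, from 1359, 866 and 1482 fragments. The WT and Dspp-/- libraries overlapped and the Dspp+/- library stood alone at the low end. It was at 0.546 (0.501 to 0.595) of WT in Dspp+/-, the lowest of the 10 genes, and 0.992 (0.921 to 1.07) in Dspp-/-. Of all compared genes, 5.59% had a lower log2 ratio than Plagl1 in Dspp+/- against WT. Dspp-/- was 1.82 (1.67 to 1.98) times Dspp+/-. Peg3, at chr7:6703892-6730431 on the minus strand, encodes a large zinc finger protein known from maternal behaviour and growth. Peg3 had 7.28 FPKM in WT against 4.13 in Dspp+/- and 6.45 in Dspp-/-, from 2007, 1328 and 1955 fragments. Again the Dspp+/- library was the low one, at 0.567 (0.529 to 0.608) of WT, while Dspp-/- was at 0.886 (0.832 to 0.943) of WT and 1.56 (1.46 to 1.68) times Dspp+/-.

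Grb10 and Cdkn1c encode maternally expressed brakes on growth. Grb10, at chr11:11930508-12038683 on the minus strand, encodes an adaptor that dampens signalling from the insulin and IGF1 receptors. It had 19.1 FPKM in the WT library, 12.1 in the Dspp+/- library and 14.9 in the Dspp-/- one, from 3514, 2587 and 3004 fragments. Here both mutant libraries were below WT, Dspp+/- more so. Relative to WT, Grb10 stood at 0.631 (0.600 to 0.664) in the Dspp+/- library and at 0.778 (0.740 to 0.817) in the Dspp-/- library, and Dspp-/- was 1.23 (1.17 to 1.30) times Dspp+/-. Cdkn1c, at chr7:143458339-143461050 on the minus strand, encodes the cell cycle inhibitor p57Kip2, which chondrocytes need to leave the cycle and become hypertrophic. It had 14.8 FPKM in WT against 12.6 in Dspp+/- and 16.6 in Dspp-/-, from 612, 605 and 751 fragments. The mutant libraries lay on opposite sides of WT, at ratios of 0.847 (0.756 to 0.950) and 1.12 (1.00 to 1.24). Dspp-/- was 1.32 (1.18 to 1.47) times Dspp+/-. Of the exon length of Cdkn1c, 30.7% overlaps Gm44732 on the other strand, and whether strand was kept is not given in the sources used here.

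Ndn and Mest are paternally expressed and stood at low levels. Ndn, at chr7:62346569-62350262 on the plus strand, encodes necdin, a growth-restraining protein of the MAGE family. It had 2.33 FPKM in the WT library, 1.75 in the Dspp+/- library and 2.12 in the Dspp-/- one, from 174, 153 and 174 fragments. Dspp+/- was at 0.754 (0.603 to 0.942) of WT, and the Dspp-/- ratio of 0.910 (0.733 to 1.13) included 1. Mest, at chr6:30723547-30748465 on the plus strand, encodes a membrane protein of the alpha/beta-hydrolase fold linked to growth and fat expansion. It had 1.77 FPKM in WT against 1.54 in Dspp+/- and 1.88 in Dspp-/-, from 141, 143 and 165 fragments. Neither ratio, 0.869 (0.684 to 1.10) or 1.06 (0.845 to 1.34), was apart from 1 by more than counting error. Of the exon length of Mest, 23.1% overlaps Copg2 on the other strand.

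**Figure D2:**
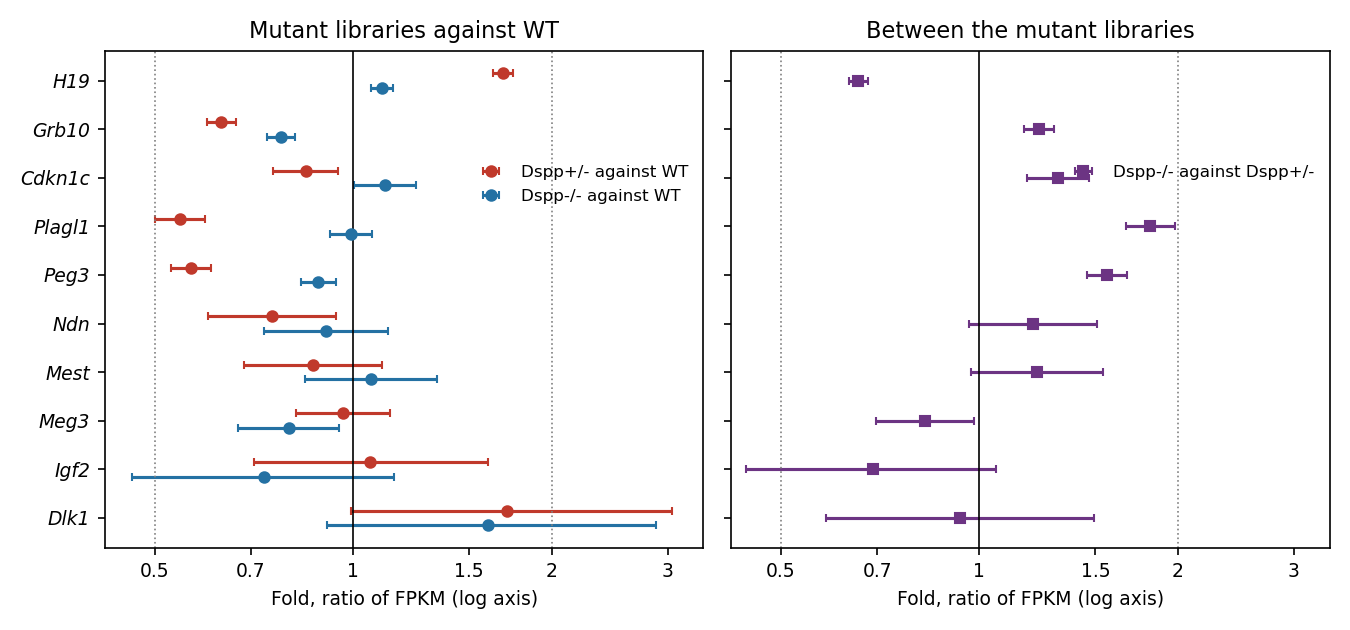
Fold of the 10 genes, as the ratio of FPKM on a log axis, for each mutant library against WT (left) and for Dspp-/- against Dspp+/- (right). Bars are 95% intervals from the fragments and cover counting error only, and dotted lines mark 2-fold either way. No point lay past a dotted line, and Plagl1, Peg3 and Grb10 lay lowest in Dspp+/-.

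Across the 7 genes compared, the Dspp+/- library differed from WT more than the Dspp-/- library did, without any gene reaching 2-fold. Against WT, 0 were at least 2-fold lower and 0 at least 2-fold higher in Dspp+/-, where 2.86% and 4.88% of all compared genes were. In Dspp-/- the counts were again 0 and 0, beside 1.37% and 4.05%. At 1.5-fold, 3 were lower (Plagl1, Peg3 and Grb10) and 1 higher (H19) in Dspp+/-, beside 8.95% and 11.5% of all compared genes, and 0 either way in Dspp-/-, beside 8.21% and 8.84%. Between the mutants, 0 genes were 2-fold apart, beside 0.798% lower and 0.852% higher in Dspp-/- among all compared genes. There, H19 was at least 1.5-fold lower in Dspp-/- on the log2(FPKM + 1) scale, beside 4.32%. Plagl1 was at least 1.5-fold higher on that scale, beside 3.39%. By FPKM alone, Peg3 (1.56) was also past 1.5-fold higher in Dspp-/-. The share of all compared genes past 1.5-fold by FPKM alone is not given here. The median log2 ratio of the 7 genes was -0.27 in Dspp+/- and -0.010 in Dspp-/-, beside 0.058 and 0.0070 over all compared genes. Dspp+/- was the lowest of the 3 libraries for 6 of the 7 genes, where it was the lowest for 26.6% of all compared genes, and the highest for 1 (H19), beside 38.2%. WT was the lowest for 1 (beside 41.7%) and the highest for 4 (beside 34.7%), and Dspp-/- for 0 (beside 31.7%) and 2 (beside 27.1%). With 7 genes chosen by name and 1 library per genotype, these counts carry no test.

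The direction of the lower genes depended on the scale. The log2 ratios in Dspp+/- were -0.75 for Plagl1, -0.69 for Peg3, -0.62 for Grb10, -0.27 for Ndn, -0.22 for Cdkn1c and -0.13 for Mest. When the libraries were set equal on the median of the skeletal connective tissue lists (osteoblast, osteocyte, chondrocyte, tendon and fibroblast), all 6 turned positive, to 0.58, 0.62, 0.81, 0.85, 1.22 and 0.96 in the same order, and H19 went from 0.75 to 2.25. That scaling moved the median of all compared genes from 0.058 to 1.36 in Dspp+/- and from 0.0070 to 0.74 in Dspp-/-. The 6 genes were therefore lower on the deposited scale in the Dspp+/- library but higher relative to the pooled skeletal lists. There the medians of the osteoblast, osteocyte and chondrocyte lists lay below all 6 genes, and that of the tendon and fibroblast list lay among them. Single markers varied, from -1.63 to 0.73 on the tendon and fibroblast list and from -1.78 to -0.70 on the osteocyte list. The median log2 ratio was -2.90 for the chondrocyte list, -1.60 for osteoblasts, -1.43 for osteocytes and -0.31 for the tendon and fibroblast list in Dspp+/-. In Dspp-/- these medians were -1.11, -0.89, -1.27 and -0.23. The part of the cell mixture in the levels of Plagl1, Peg3 and Grb10 was not tested.

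**Figure D3:**
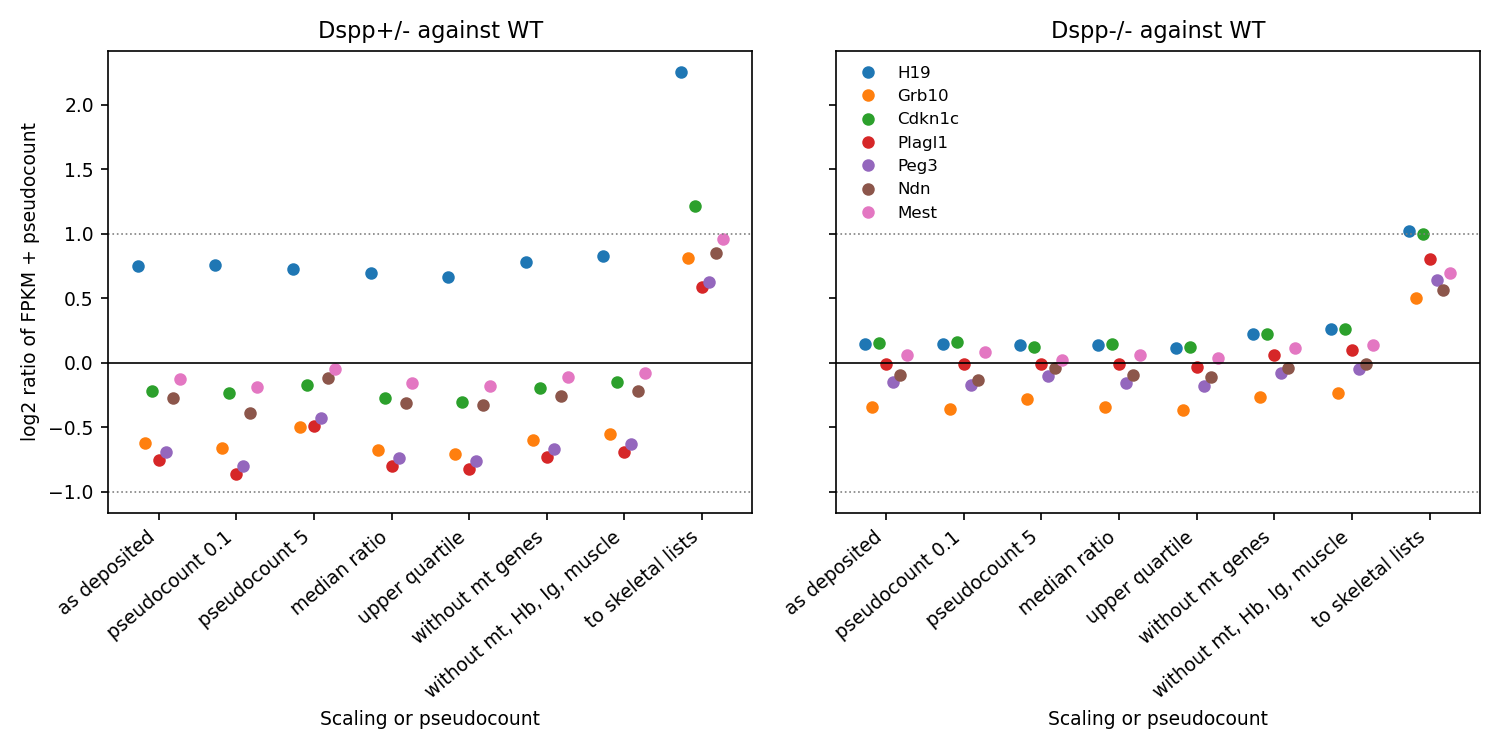
Log2 ratio of each compared gene against WT in Dspp+/- (left) and Dspp-/- (right) under the deposited scale, 2 other pseudocounts and 5 other scalings. Each point is 1 gene, and dotted lines mark 2-fold. Apart from Plagl1 in Dspp-/-, which lay near 0, points kept their side of 0 except under scaling to the skeletal lists, where all of them lay above 0.

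Imprinted genes outside the set were read from a list for comparison. Whether each of them is expressed mainly from 1 copy in the condyle was not measured. Of 53 read from the table, 34 were compared. On the log2(FPKM + 1) scale, 0 were at least 2-fold lower in either mutant, beside 2.86% of all compared genes in Dspp+/- and 1.37% in Dspp-/-. At least 2-fold higher were 3 in Dspp+/-, beside 4.88%, and 1 in Dspp-/-, beside 4.05%. By FPKM alone, without the pseudocount, Dio3 (3.16) was also past 2-fold higher and Calcr (0.394) past 2-fold lower in Dspp+/-, and in Dspp-/- Tspan32 (5.10) was past 2-fold higher and Tssc4 (0.442) and Dio3 (0.376) past 2-fold lower. The share of all compared genes past 2-fold by FPKM alone is not given here. The median log2 ratios of the 34 genes were 0.090 and 0.035. The 3 in Dspp+/- were Tspan32, a tetraspanin of blood cells (1.28), Asb4 (1.17) and Gatm, an enzyme of creatine synthesis (1.54). Gatm was also the 1 in Dspp-/- (1.38). The list holds the genomic neighbours of the set, of which 12 were compared with medians of 0.17 and -0.013, and imprinted genes elsewhere, of which 22 were compared with medians of 0.027 and 0.039. The difference between these medians and that of the 7 genes was not tested.

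In the domains of H19, Igf2 and Cdkn1c on chromosome 7, the neighbours differed among themselves. Cd81, a tetraspanin, had 64.6 FPKM in the WT library, 49.8 in the Dspp+/- library and 50.1 in the Dspp-/- one, and Nap1l4, a histone chaperone, had 36.7, 43.5 and 35.8. Osbpl5, an oxysterol-binding protein, was lower in both mutants, with 20.3, 10.6 and 11.2 FPKM, and so was Tssc4, with 7.66, 4.57 and 3.39 FPKM. Tspan32 had 0.301, 2.16 and 1.54 FPKM. Phlda2, a placental growth brake, was near the detection limit, with 1, 0 and 5 fragments. The Kcnq1ot1 RNA, whose transcription silences Cdkn1c on the paternal copy, had 0.0876, 0.0964 and 0.121 FPKM.

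In the Dlk1 and Meg3 domain on chromosome 12, most genes were scarce. Rian, a noncoding RNA downstream of Meg3, had 0.510, 0.449 and 0.475 FPKM in WT, Dspp+/- and Dspp-/-. Rtl1, a retrotransposon-derived gene, had 2, 3 and 1 fragments, and Mirg, a microRNA host, had 15, 25 and 2. Dio3, the deiodinase that inactivates thyroid hormone, lay on opposite sides of WT with 29, 107 and 12 fragments, at 3.16 (2.08 to 4.95) and 0.376 (0.175 to 0.761) of WT.

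Around the other genes of the set, Zim1 beside Peg3 had 1.19, 1.44 and 1.65 FPKM in WT, Dspp+/- and Dspp-/-. In the Ndn domain, Mkrn3 had 23, 11 and 11 fragments and Peg12 had 1.14, 0.369 and 0.477 FPKM, both lower in the mutants. Snrpn, a spliceosome protein of the same domain, was higher, with 4.71, 8.02 and 5.87 FPKM, and the ubiquitin ligase gene Ube3a had 4.42, 5.19 and 6.15. Of the exon length of Snrpn, 27.3% is shared on the same strand with Gm38393 and with Snurf, which was not analysed here. Atp10a had 7.37, 4.98 and 6.63 FPKM. Copg2, a coat protein gene that overlaps Mest, had 5.64, 5.60 and 7.13 FPKM, and Cobl beside Grb10 had 2.52, 3.30 and 2.55. Within the Ndn domain, values in the mutants thus lay on both sides of WT.

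Genes of the insulin-like growth factor system, which Igf2 and Grb10 act in, were described from a list of 18, of which 17 had a value and 13 were compared. On the log2(FPKM + 1) scale, 0 of the 13 were 2-fold apart from WT in either mutant. Among all compared genes, 2.86% were lower and 4.88% higher in Dspp+/-, and 1.37% and 4.05% in Dspp-/-. Igfbp6 in Dspp-/- was next to the threshold at -0.99 (0.4999 of WT by FPKM alone, just past 2-fold). The median log2 ratio was -0.26 in Dspp+/- and -0.14 in Dspp-/-, with 11 and 8 of the 13 below 0, beside 43.7% and 49.3% of all compared genes. These signs hold on the deposited scale. Scaling to the skeletal lists divides Dspp+/- by 0.351, under the lowest FPKM ratio of the 13 (Pappa, 0.564). All 13 would then lie above WT, where the median of all compared genes was 1.36. The Dspp-/- factor of 0.541 lay under all of the ratios but that of Igfbp6. Igf1, the postnatal ligand, had 6.96 FPKM in WT against 4.61 in Dspp+/- and 9.11 in Dspp-/-, so it was far above Igf2 in every library and lay on opposite sides of WT in the mutants, at 0.663 and 1.31 of it. Among the Igfbp genes on the list, which encode binding proteins, Igfbp2 was scarce, with 8, 5 and 7 fragments, and the others were abundant. Igfbp5 had 141, 118 and 150 FPKM, Igfbp3 had 38.9, 24.1 and 28.6, and Igfbp6 had 124, 84.8 and 61.8. Igfbp7, the most abundant, had 334, 211 and 226 FPKM. Among receptors, Igf1r had 5.81, 5.38 and 5.98 FPKM and the insulin receptor gene Insr had 8.24, 9.55 and 9.63. Igf2r, itself imprinted, clears Igf2 from the cell surface and had 22.1, 19.4 and 19.9 FPKM. The docking protein gene Irs1 had 6.88, 4.60 and 5.87 FPKM, and Pappa, a protease of binding proteins, had 5.61, 3.17 and 3.95.

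Relatives of these genes that are not imprinted were read beside them. Of 9 with a value, 6 were compared, with 2 at least 2-fold lower in Dspp+/- and 1 in Dspp-/-, beside 2.86% and 1.37% of all compared genes. The 2 were the MAGE genes Maged1, with 53.1, 25.3 and 35.5 FPKM in WT, Dspp+/- and Dspp-/-, and Maged2, with 16.9, 6.52 and 9.91 FPKM, both on the X chromosome. The 1 was Cdkn1a, the p21 cell cycle inhibitor, with 59.0, 49.1 and 28.0 FPKM. Plagl2 was higher in both mutants at 2.77, 5.14 and 4.64 FPKM, so the ratio of Plagl1 to Plagl2 was 3.11 in the WT library, 0.913 in the Dspp+/- library and 1.84 in the Dspp-/- one. Grb14, the closest relative of Grb10 on the list, had 3.59, 4.30 and 4.02 FPKM. Cdkn1c stood at 0.251 of Cdkn1a in WT against 0.256 in Dspp+/- and 0.592 in Dspp-/-.

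Of 10 factors that set or keep imprints, 7 were compared. On the log2(FPKM + 1) scale, 0 were at least 2-fold lower in either mutant, beside 2.86% of all compared genes in Dspp+/- and 1.37% in Dspp-/-. At least 2-fold higher was 1 in each mutant, beside 4.88% and 4.05%. The 1 was Uhrf1, which guides methylation after DNA replication, with 1.72 FPKM in the WT library, 6.36 in the Dspp+/- library and 5.20 in the Dspp-/- one. Dnmt1, the maintenance methyltransferase that works with it, had 4.68, 10.3 and 8.95 FPKM, log2 ratios of 0.99 and 0.81, and by FPKM alone it was 2.20 (2.01 to 2.40) times WT in Dspp+/-. Both are also highly expressed in dividing cells, and the erythroid and neutrophil marker sums were higher in the same 2 libraries. Their part in the Uhrf1 and Dnmt1 levels was not tested. Ctcf, which insulates Igf2 from the shared enhancers, had 14.0, 16.6 and 18.8 FPKM. Trim28, the partner of ZFP57, had 25.9, 28.5 and 26.1. Zfp57 itself was scarce, with 26, 25 and 37 fragments.

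**Figure D4:**
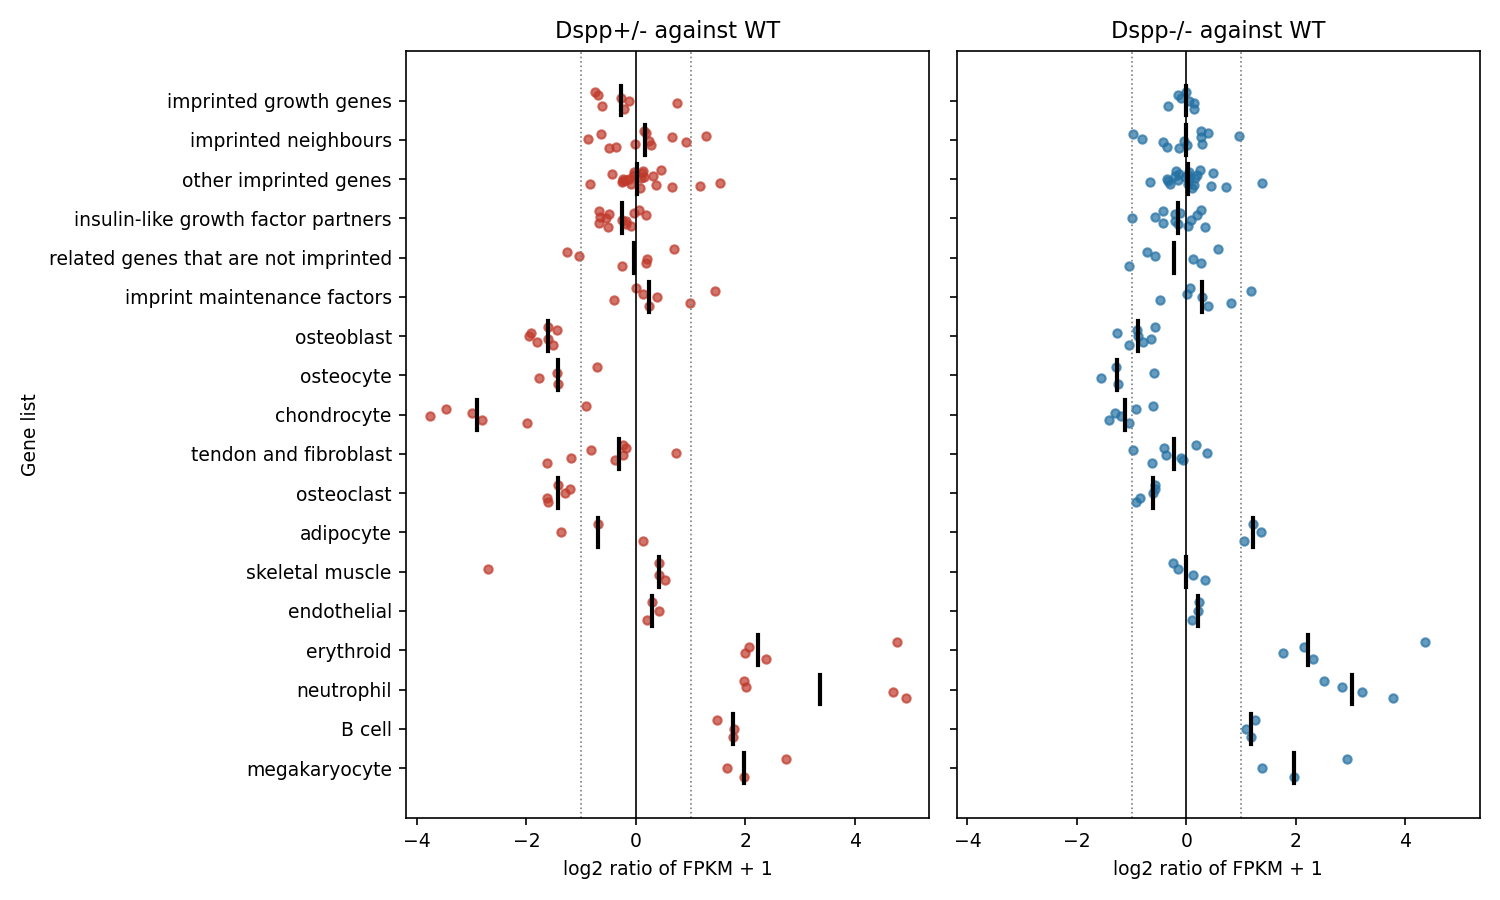
Log2 ratios of (FPKM + 1) against WT in Dspp+/- (left) and Dspp-/- (right) for each list of genes. Each point is 1 compared gene (7 of the 10 imprinted growth genes), bars are the medians of the lists and dotted lines mark 2-fold. In Dspp+/- the median of the imprinted growth genes was -0.27, and those of the osteoblast, osteocyte, chondrocyte and osteoclast lists lay at -1.41 or lower. Of the marker lists, the erythroid, neutrophil, B cell, megakaryocyte, skeletal muscle and endothelial ones had medians above 0.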

How the data were processed

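Poly(A) RNA from condyles was sequenced as paired 150-base reads, and the authors deposited FPKM per gene in 1 column per genotype. The labels speak of triplicate libraries, which are not analysed separately here. Per the labels, their processing notes name FastQC 0.11.5, HISAT2 2.1.0 and StringTie 1.3.3b, and the build hg38, a human one. The gene identifiers are mouse Ensembl IDs, of which 26641 of 26970 (98.8%) matched GENCODE M21 (GRCm38). Gene positions given here come from that annotation, since only 578 genes had the same start and end in the deposited table. The annotation and the counting of overlapping or antisense genes are not given in the sources used here.

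Fragments were recovered from FPKM and merged exon lengths (in genes under 100 fragments, 98.8% to 98.9% came within 0.1 of a whole number), so each column has the steps of 1 depth, as a single library or a sum would, and was treated as 1 library. For Peg3 the length was searched for, as the annotated one gave no whole numbers. Intervals are exact Poisson for levels and Clopper-Pearson for ratios, at 95%. They cover counting error only, and reads without molecular identifiers are not independent molecules. The log2 ratios used a pseudocount of 1 FPKM over genes averaging 1 FPKM or more, counted at 2-fold and at 1.5-fold. No test was run, and no count model was fitted, for want of replicates. The recovery of fragments was tested on simulated data. Scripts ran in Python 3.11.15, with scipy 1.17.1 for the intervals, pandas 2.3.3 and numpy 2.4.6 for the tables and matplotlib 3.10.9 for the plots.

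All 10 imprinted growth genes are named. Genes of the 5 comparison lists were named where their list is described, and from each of the 12 marker lists at most the 3 with the highest mean FPKM, with Myh4 and Xist added after their values were seen. The genes and lists were chosen with earlier results of these data known. Promoter and microRNA sequences are from RefSeq (GRCm38.p6), and H19 and Cdkn1c had no promoter entry. Other pseudocounts, filters, thresholds and scalings were tried. Dspp is not reported here.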

Additional observations from a re-analysis of the deposited data

Results flagged for a closer look

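Some genes lay on opposite sides of WT in the mutant libraries by more than counting error, each in 1 library, and the difference was not tested. Among the imprinted growth genes this held for Cdkn1c, at 0.847 of WT in Dspp+/- and 1.12 in Dspp-/-, with an interval in Dspp-/- that began at 1.00. Under scaling to the skeletal lists Cdkn1c lay above WT in both, with log2 ratios of 1.22 and 1.00. Among other imprinted genes it held for Dio3 (3.16 and 0.376), for the noncoding RNA Peg13 (1.26 and 0.863) and for Trappc9, in whose intron Peg13 lies (1.11 and 0.855). In the insulin-like growth factor system it held for Igf1 (0.663 and 1.31) and Igfbp5 (0.836 and 1.06). All these intervals were taken on the deposited scale. Upper-quartile scaling divides Dspp+/- by 1.06 and Dspp-/- by 1.02. The Trappc9 interval in Dspp+/- (1.01 to 1.22) and the Cdkn1c interval in Dspp-/- began below those factors, so both would then include 1. Scaling without mitochondrial, hemoglobin, immunoglobulin and skeletal muscle genes divides Dspp+/- by 0.948 and Dspp-/- by 0.922. The Cdkn1c interval in Dspp+/- ended at 0.950, and those of Peg13 and Trappc9 in Dspp-/- ended at 0.932 and 0.949. These would then include 1. The factors of the skeletal lists, 0.351 and 0.541, lay below both ratios of Igf1, Igfbp5, Peg13 and Trappc9. These genes would then lie above WT in both mutants.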

How the results depend on the processing

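Of 122 single-gene log2 ratios under the alternatives, 30 were marked as moved from the reported value and 92 were not. The mark did not follow the size of the change alone. Ndn in Dspp+/- (-0.27 to -0.39 at a pseudocount of 0.1) was not marked. Grb10 in Dspp-/- (-0.34 to -0.27 without mitochondrial genes) was. The sign turned in 12 of the 122. Of these, 10 came from scaling to the skeletal connective tissue lists and the other 2 from Plagl1 in Dspp-/-, whose ratio was near 0. Scaling to the skeletal lists moved the median of all compared genes to 1.36 in Dspp+/-, itself past 2-fold, and to 0.74 in Dspp-/-. On that scale 2 genes (H19 at 2.25 and Cdkn1c at 1.22) were at least 2-fold higher in Dspp+/-, with Cdkn1c under the all-gene median. In Dspp-/- it was 1 gene (H19 at 1.02). The medians of the set turned to 0.83 and 0.67, over 8 genes, since Meg3 (0.81 and 0.27) then passed the filter. That scaling turned Grb10, Ndn, Peg3 and Plagl1 in Dspp-/- to 0.50, 0.56, 0.64 and 0.80. Keeping only genes that averaged 5 FPKM or more left 5 genes with a median of -0.62 in Dspp+/-. At 1.5-fold, 3 genes were lower and 1 was higher in Dspp+/-. Median-ratio scaling moved the median of the insulin-like growth factor list in Dspp+/- from -0.26 to -0.31. Medians of the set under the other settings ran from -0.39 to -0.17 in Dspp+/- and from -0.052 to 0.095 in Dspp-/-. No paired analysis was possible because each genotype has 1 library, and for the same reason no library could be left out. Depth limits Igf2 and Dlk1, with 21 to 57 fragments each.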

Other observations

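Several imprinted genes lie inside the intron of another gene and were set against their host. Zrsr1, a splicing factor gene within Commd1, stood at 2.74 of its host by FPKM in WT against 4.49 in Dspp+/- and 3.29 in Dspp-/-. Peg13 stood at 3.05, 3.45 and 3.07 of Trappc9. Mcts2, within H13, stood at 0.404, 0.398 and 0.382, and Nnat, within Blcap, at 0.156, 0.132 and 0.171. The Zrsr1 ratio thus differed most between WT and Dspp+/-, and the Mcts2 ratio least. Each ratio comes from 1 library and carries no test.

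Imprinted genes of other tissues were also read. Calcr, the calcitonin receptor of osteoclasts, had 211, 97 and 174 fragments in WT, Dspp+/- and Dspp-/-, at 0.394 (0.307 to 0.503) and 0.750 (0.610 to 0.921) of WT by FPKM, beside the osteoclast marker sums of 2199, 775 and 1270. Ampd3, an AMP deaminase of red cells, had 3.06, 5.39 and 5.72 FPKM, beside erythroid sums of 829, 3468 and 3311. Gnas, the gene of a stimulatory G protein subunit, had 8.43, 6.88 and 4.94 FPKM, and Sgce, a sarcoglycan gene, had 3.66, 2.46 and 3.26. Whether the cell mixture takes part in these levels was not tested.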
